A study of Mus musculus with 2 samples.

Results

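Immediate early genes are transcribed within minutes of a stimulus, without new protein synthesis, from promoters on which serum response factor, CREB and other factors already sit. Their products include the Fos and Jun proteins, which pair through leucine zippers to form the transcription factor AP-1, the zinc finger factor Egr1, the orphan nuclear receptor Nr4a1, and Arc, a protein of active synapses. In nervous tissue they serve as a record of neuronal activity, and tissue dissociation and cell sorting can induce them as well, so their level in sorted cells is often read as a sign of handling. The 10 genes described here are Fos, Fosb, Jun, Junb, Jund, Egr1, Arc, Nr4a1, Atf3 and Ier2, chosen by symbol out of the 20373 genes listed for each library. All 10 were listed once in both libraries.

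RNA was sequenced from 2 sorted populations of mouse embryonic cortex, taken at embryonic day 15.5, with 1 library of each. Nestin-GFP heterozygotes were crossed with DCX-mRFP homozygotes and the embryos that carried both reporters were used, so both populations share this genotype. Cells with both colours were taken as neurons and cells with the green colour as neural progenitor cells (NPCs). Cortices were triturated in a buffer with EDTA and DNase I, washed, sorted by fluorescence and lysed in TRIzol. The sources used here do not give how long this took, at which temperature, how many embryos were pooled or whether transcription was blocked, and no undissociated cortex was analysed here. A response to dissociation and the level in the intact tissue therefore cannot be told apart in either library. Gates on reporter colour follow the reporter proteins, which can outlast the transcripts of the genes that drive them.

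Reads on listed genes numbered 23312054 in the neuron library and 26346226 in the NPC library. Levels are in CPM (counts per 1000000), on the authors' scaling between the libraries, and 1 CPM was 22.8 reads in the neuron library and 26.97 in the NPC library. A count of 3 reads, taken as the floor of detection, was 0.132 CPM in neurons and 0.111 CPM in NPCs. With 1 library per population no difference has a replicate check and no p-value was computed. Intervals are exact 95% intervals that cover counting error only. The neuron markers Dcx (3294 CPM in neurons and 2522 in NPCs) and Tubb3 (1961 and 1092 CPM) and the progenitor markers Vim (196.7 CPM in neurons and 623.0 in NPCs) and Nes (189.5 and 408.5 CPM) were each on the side of their label but abundant in both libraries. Dcx and Nes are the genes behind the sorting reporters, so their levels are not independent of the gates. Of 9 neuron markers, Dcx included, 8 were higher in neurons, against 6263 of the 12693 genes with at least 1 CPM in a library. The exception was Rbfox3, named after its value was seen, at 99.6 CPM in neurons and 107.5 in NPCs, a ratio of 0.927 (0.877 to 0.9797). The headers of the value columns begin with R in the neuron file and D in the NPC file, letters that the labels do not explain, and the groups were taken from the labels. In bulk RNA, fewer cells of a type and less RNA per cell cannot be told apart.

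The promoters of 4 of the genes are shown because their transcripts lay in different places, Jun higher in NPCs, Junb and Nr4a1 higher in neurons and Fos scarce in both. They are RefSeq sequences of build GRCm38.p6, from 250 bases before the annotated start site to 50 after it, read 5′ to 3′ on the gene's strand. Capitals mark TGACG or its reverse complement CGTCA, the core of a cyclic AMP response element (CRE), through which CREB and ATF proteins bind.
Fos (chr12:85473640-85473939, + strand): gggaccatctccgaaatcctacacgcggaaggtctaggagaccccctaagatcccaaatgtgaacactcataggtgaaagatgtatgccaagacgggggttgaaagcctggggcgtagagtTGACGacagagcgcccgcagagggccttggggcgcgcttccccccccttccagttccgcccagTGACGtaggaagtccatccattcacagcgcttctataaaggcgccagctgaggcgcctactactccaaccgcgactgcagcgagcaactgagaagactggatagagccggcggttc
Jun (chr4:95052173-95052472, - strand): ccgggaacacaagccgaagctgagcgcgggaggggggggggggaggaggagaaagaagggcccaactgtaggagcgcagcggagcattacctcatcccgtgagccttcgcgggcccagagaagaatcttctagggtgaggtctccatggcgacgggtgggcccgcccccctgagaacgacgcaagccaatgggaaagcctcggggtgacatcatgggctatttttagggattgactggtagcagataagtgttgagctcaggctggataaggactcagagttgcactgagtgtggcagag
Junb (chr8:84978699-84978998, - strand): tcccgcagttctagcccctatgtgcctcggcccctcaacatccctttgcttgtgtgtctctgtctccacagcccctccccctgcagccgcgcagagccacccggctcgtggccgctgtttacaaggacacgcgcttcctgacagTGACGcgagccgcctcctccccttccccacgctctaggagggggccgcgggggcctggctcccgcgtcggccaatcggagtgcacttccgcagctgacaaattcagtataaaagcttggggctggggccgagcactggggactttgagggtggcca
Nr4a1 (chr15:101266596-101266895, + strand): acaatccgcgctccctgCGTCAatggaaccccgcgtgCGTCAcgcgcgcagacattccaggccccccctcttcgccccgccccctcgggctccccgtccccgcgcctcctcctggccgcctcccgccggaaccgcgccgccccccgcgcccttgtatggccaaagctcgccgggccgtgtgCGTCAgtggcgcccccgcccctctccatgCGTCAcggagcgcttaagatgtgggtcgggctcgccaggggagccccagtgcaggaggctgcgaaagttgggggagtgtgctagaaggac
The Fos window held 2 CRE cores, the nearer one starting 66 bases before the start site, and the letters TATAAA from base 33 before it. Junb held 1 CRE core, 106 bases before the start, and TATAAA at the annotated RefSeq start itself, which lies 30 bases from the gene start in GENCODE M21. Nr4a1 held 4, the nearest 40 bases before the start, beside the reverse complement of the Egr-binding letters GCGGGGGCG. The Jun window held 0 exact matches, and variants of the core, such as the letters TGACATCA that it contains, were not searched for. Promoters were found for 7 of the 10 genes, and not for Egr1, Arc and Ier2. In the other 3 windows, Fosb and Atf3 held 1 CRE core each and Jund 0. The Fosb window also held the Egr-binding letters GCGGGGGCG, starting 50 bases before the start site. Of 32851 promoters of this length in the same table, searched on both strands, 20.8% held at least 1 CRE core and 5.01% at least 2. The full element TGACGTCA, in which the core overlaps its own reverse complement, occurred in 1.79% of all promoters, the AP-1 letters TGACTCA or TGAGTCA in 5.20% and the CArG box of serum response factor in 1.63%, and in 0 of the 7 windows. TATAAA occurred in 13.6% of all promoters and the Egr letters GCGTGGGCG or GCGGGGGCG in 3.47%. These matches describe exact letters in the window only. Variant sites, and sequence more than 250 bases before the start site, were not searched, so a count of 0 does not show that an element is absent from the gene. The Jund window starts from a RefSeq site 1210 bases away from the gene start in GENCODE M21, the Nr4a1 window from a site 12577 bases away and the Atf3 window from a site 34706 bases away. The offset was 6 bases for Fosb, and the sites of Fos and Jun lie on the GENCODE start.

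Transcripts of Fos, Fosb and Atf3, which are among the genes most often named as marks of stimulation, were scarce in both libraries. Fos was read 15 times in neurons and 13 times in NPCs, or 0.659 and 0.482 CPM. Fosb, its close relative, was read 2 times in neurons and 6 times in NPCs (0.0882 and 0.222 CPM). Atf3, a stress-induced partner of Jun, was read 4 times in neurons and 6 times in NPCs (0.176 and 0.222 CPM). None of the 3 reached 1 CPM in a library. Per kilobase of transcript the Fos level was 0.313 CPM in neurons and 0.229 in NPCs, at percentiles 19.4 and 17.6 of the genes with a read in that library and a transcript length in GENCODE M21. The neuron to NPC ratios were 1.37 for Fos (0.606 to 3.12), 0.397 for Fosb (0.0390 to 2.21) and 0.792 for Atf3 (0.164 to 3.33). All 3 intervals held 1, so no difference was detectable at this depth.

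Jun and Jund made up most of what was read from the 10 genes, and they lay on opposite sides. Jun, the classic inducible partner of Fos, was at 40.8 CPM in neurons (930 reads) and 85.05 in NPCs (2294 reads), 2.08-fold higher in NPCs (1.93 to 2.25). Jund, the steadily expressed Jun protein, was at 139.7 CPM in neurons (3183 reads) and 97.9 in NPCs (2640 reads), 1.43-fold higher in neurons (1.36 to 1.504). Neither interval reached 1. Junb, which is induced with Fos and can restrain Jun, was low and also higher in neurons, at 2.94 CPM there (67 reads) and 1.89 in NPCs (51 reads), 1.56-fold (1.06 to 2.28). Summed over the 3 genes the level in CPM was nearly equal, 183.5 in neurons and 184.8 in NPCs. The neuron to NPC ratio was 0.993 (0.953 to 1.03). Per kilobase of transcript the sums were 98.2 CPM in neurons and 86.4 in NPCs, so this equality holds in CPM alone. The make-up of the Jun family differed. Jun took 22.2% of the family's reads in neurons (21.0 to 23.5) and 46.0% in NPCs (44.6 to 47.4), while Jund took 76.1% (74.8 to 77.4) and 53.0% (51.6 to 54.4). Junb took 1.60% in neurons and 1.02% in NPCs. Counted per transcript length, Jun took 13.0% in neurons and 30.9% in NPCs and Jund 85.3% and 67.9%. The ratio of Jun to Jund reads was 0.292 in neurons (0.271 to 0.314) and 0.869 in NPCs (0.821 to 0.919), and these ratios and shares do not depend on how the libraries are scaled to each other. GENCODE M21 places the antisense gene Gm11175 over 877 bases of the 1668-base Jund transcript and Junos over 232 of the 3189 bases of Jun. Neither is listed in the files, and without known strand their reads cannot be told apart from those of Jund and Jun. Of the 1809 bases of Junb, 173 overlap the far more abundant Prdx2 on the other strand (606.7 CPM in neurons and 560.9 in NPCs), which leaves the low Junb level uncertain.

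**Figure D1:**
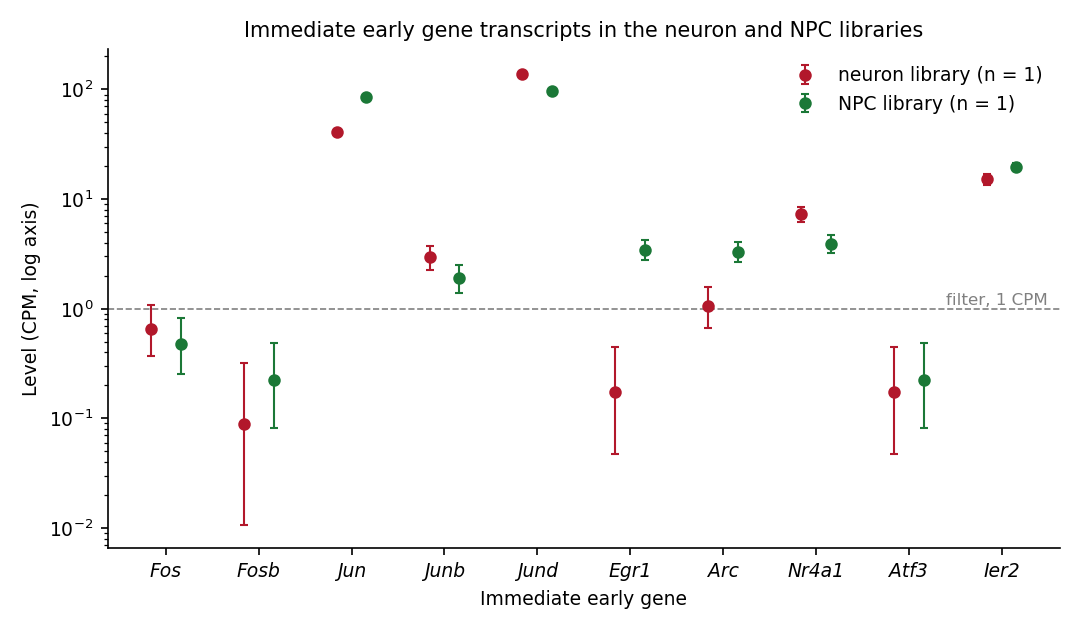
Level of each of the 10 immediate early genes in CPM on a log axis, with the neuron library left of the NPC library for each gene and bars for the exact 95% counting interval (1 library each). Jund and Jun stand highest, Fos, Fosb and Atf3 lie below 1 CPM in both libraries, and Egr1 lies at 0.176 CPM in neurons and 3.45 in NPCs.

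Within the Fos family, the relatives that respond later and persist longer carried nearly all reads. Fosl2 was at 22.5 CPM in neurons (512 reads) and 8.90 in NPCs (240 reads), 2.53-fold higher in neurons (2.16 to 2.96), and took 78.8% (75.4 to 81.9) and 68.0% (62.8 to 72.8) of the reads of Fos, Fosb, Fosl1 and Fosl2. Fosl1 was at 5.31 CPM in neurons (121 reads) and 3.48 in NPCs (94 reads), 1.52-fold higher in neurons (1.15 to 2.02). Fos itself took 2.31% in neurons (1.30 to 3.78) and 3.68% in NPCs (1.98 to 6.22), and Fosb 0.308% and 1.70%. Per transcript length Fosl2 took 51.9% in neurons and 38.7% in NPCs and Fosl1 43.0% and 53.1%, while Fos took 4.72% and 6.50%. The 4 genes together were at 28.5 CPM in neurons and 13.1 in NPCs, 2.18-fold higher in neurons (1.91 to 2.49). The Jun family sum in CPM was nearly equal. Per kilobase of transcript the Fos family summed to 6.62 CPM in neurons and 3.52 in NPCs, and the Jun family to 98.2 and 86.4 CPM.

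**Figure D2:**
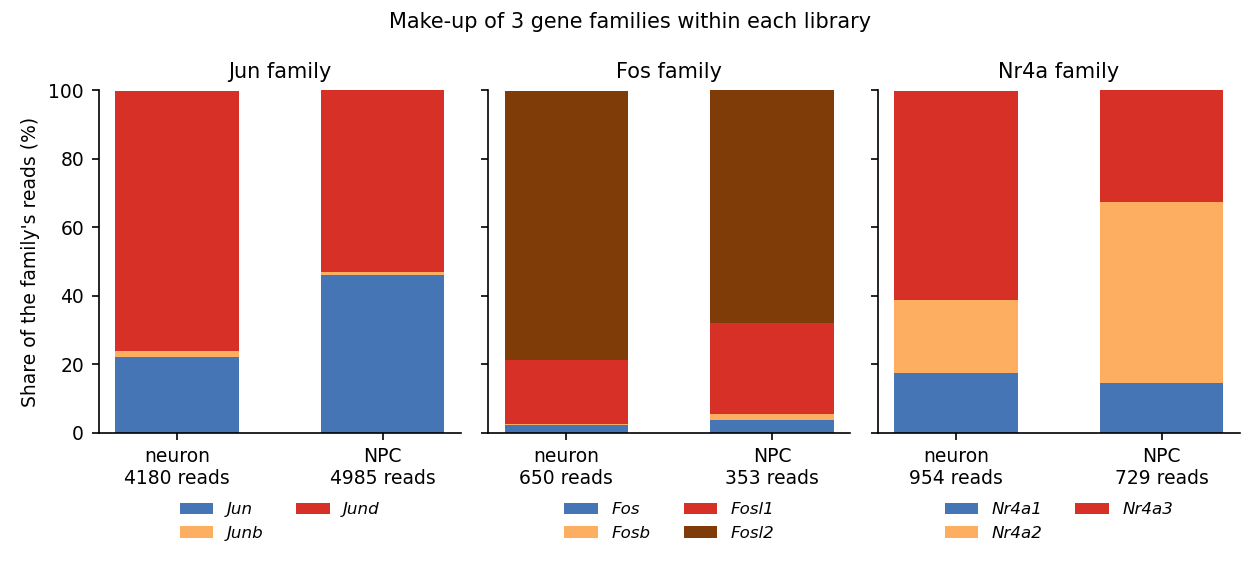
Share of each gene (%) among the reads of its family, in the neuron library (left bar) and the NPC library (right bar) of each panel, with the family's reads under the bar. Jun takes 22.2% of its family's reads in neurons and 46.0% in NPCs, Fosl2 takes most of the Fos family in both, and the Nr4a family is led by Nr4a3 in neurons (61.2%) and by Nr4a2 in NPCs (52.8%).

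Egr1 and Arc were higher in NPCs. Egr1, a zinc finger factor induced through serum response elements, was read 4 times in neurons (0.176 CPM) and 93 times in NPCs (3.45 CPM), 19.6-fold higher in NPCs with a wide interval (7.42 to 73.6). Its ratio, on the log2 scale with 1 CPM added, was −1.92 and stood at percentile 0.575 of the 12693 genes that had at least 1 CPM in a library. The other Egr genes were nearly unread in both libraries. Egr2 was read 2 times in neurons and 3 times in NPCs, Egr3 4 and 5 times, and Egr4 0 times and 1 time. Egr1 was 91.2% of the 102 Egr reads in NPCs (83.9 to 95.9) and 40.0% of the 10 in neurons (12.2 to 73.8). Nab1 and Nab2 encode corepressors that bind Egr proteins. Nab1 was at 61.5 CPM in neurons and 50.9 in NPCs, a ratio of 1.21 (1.12 to 1.30). Nab2 was at 7.81 CPM in neurons and 6.86 in NPCs, a ratio of 1.14 (0.922 to 1.41) whose interval held 1. Arc, which neurons make upon synaptic activity and send to dendrites, was at 1.05 CPM in neurons (24 reads) and 3.30 in NPCs (89 reads), 3.13-fold higher in NPCs (1.98 to 5.14). Per kilobase of transcript Egr1 stood at percentile 6.60 in neurons and 25.8 in NPCs, and Arc at 20.1 and 28.1, so both were low among read genes in either library.

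Nr4a1 and Ier2 lay on opposite sides, with smaller differences. Nr4a1, an inducible nuclear receptor without a known natural ligand, was at 7.29 CPM in neurons (166 reads) and 3.93 in NPCs (106 reads), 1.85-fold higher in neurons (1.44 to 2.39). Its relatives differed in opposite directions. Nr4a3 was at 25.6 CPM in neurons and 8.82 in NPCs, 2.91-fold higher in neurons (2.49 to 3.39), and Nr4a2 at 8.95 CPM in neurons and 14.3 in NPCs, 1.59-fold higher in NPCs (1.34 to 1.898). Nr4a1 took a similar share of the family in both libraries, 17.4% in neurons (15.0 to 19.96) and 14.5% in NPCs (12.1 to 17.3). Nr4a3 took 61.2% (58.0 to 64.3) and 32.6% (29.3 to 36.2), and Nr4a2 21.4% (18.8 to 24.1) and 52.8% (49.1 to 56.5). Ier2, an early gene whose product acts in the nucleus, was at 15.1 CPM in neurons (345 reads) and 19.8 in NPCs (534 reads), 1.31-fold higher in NPCs (1.140 to 1.501).

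Counted together, 7 of the 10 genes had at least 1 CPM in a library. Of these, 3 were at least 2-fold higher in NPCs on the log2(CPM + 1) scale (Jun, Egr1 and Arc), against 6.73% of all 12693 genes, and 0 were 2-fold or more higher in neurons, against 3.85% of all genes. In either direction 10.6% of all genes were 2-fold or more apart. Jun and Arc lay close to that limit, with log2 ratios of −1.04 and −1.07. The 4 others were Ier2 at −0.37, Junb at 0.45, Jund at 0.51 and Nr4a1 at 0.75. Their places among all genes ran from percentile 19.8 for Ier2 to percentile 92.5 for Nr4a1. The median over the 7 genes was −0.37, that of Ier2, and over all 10 it was −0.11, beside −0.0049 over all genes that passed. Egr1 passed the 1 CPM filter through the NPC library alone. The counting interval of the ratio did not reach 1 for these 7 genes, and held 1 for Fos, Fosb and Atf3. Summed, the 10 genes were at 208.1 CPM in neurons and 216.2 in NPCs, a ratio of 0.962 (0.926 to 1.00003). Jund alone was 67.2% of the 4740 reads in neurons and 45.3% of the 5832 reads in NPCs, and without Jun and Jund the sums were 27.5 and 33.3 CPM, 1.21-fold higher in NPCs (1.09 to 1.34).

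**Figure D3:**
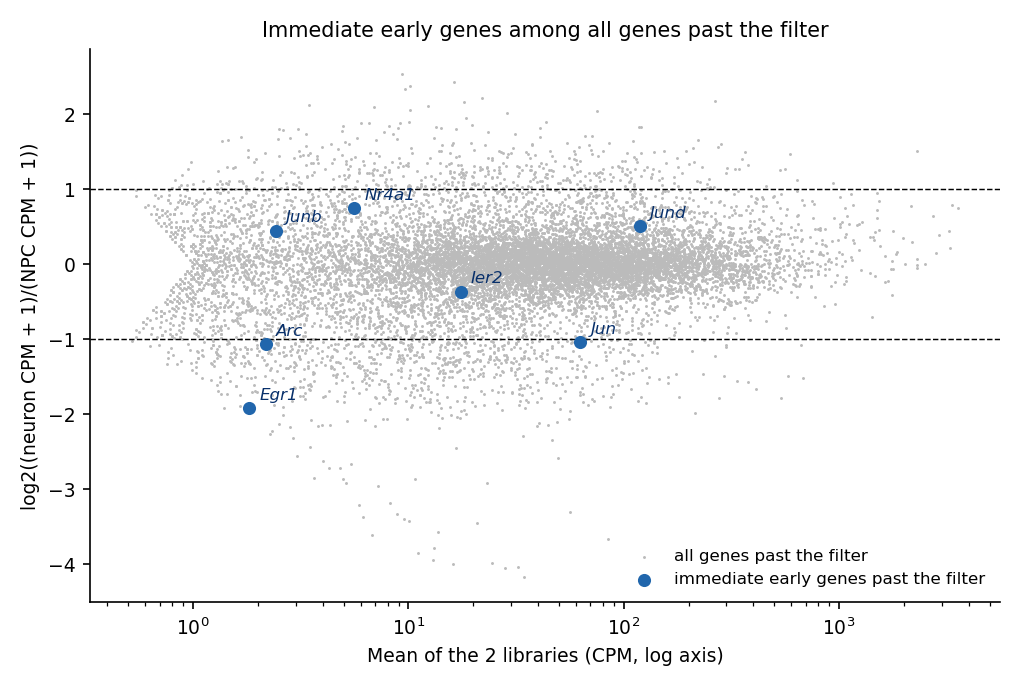
log2 ratio of neuron to NPC with 1 CPM added to both, against the mean level of both libraries in CPM on a log axis, for the 12693 genes with at least 1 CPM in a library (grey) and the 7 immediate early genes among them (blue), with dashed lines at 2-fold. Egr1, Arc and Jun lie at or below the lower line, and Junb, Jund and Nr4a1 lie above 0 and within the lines.

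Genes that act in the same pathway were gathered in 9 lists of 118 genes. Of these genes, 103 had at least 1 CPM in a library. Differences of 2-fold or more numbered 9 toward neurons, against 3.85% of all 12693 genes, and 9 toward NPCs, against 6.73%. These shares are the background for each list below. The median log2 ratio over the 103 genes was 0.11. Counts of 2-fold differences, here and for each list, are on the log2(CPM + 1) scale. Printed folds are ratios without the added 1, so a low gene can exceed 2-fold in the ratio and not in the count. Of the 103 genes, 2 passed the 1 CPM filter through the neuron library alone and 5 through the NPC library alone. Among 9 measured AP-1 relatives of 12, Fosl2 was the 1 gene at least 2-fold apart on the log2(CPM + 1) scale. Jdp2, a repressor that pairs with Jun, was at 0.922 CPM in neurons and 1.85 in NPCs, 2.01-fold higher in NPCs without the added value (1.19 to 3.53), and passed the filter through the NPC library alone. Atf2 and Atf7, which also pair with Jun, were close to equal, at 140.8 and 17.6 CPM in neurons and 135.7 and 15.7 CPM in NPCs. Atf4, a factor of the integrated stress response, was at 117.7 and 134.9 CPM. Of the small Maf genes, Mafk had a neuron to NPC ratio of 1.54 (1.33 to 1.79), Mafg of 1.12 (1.01 to 1.24) and Maff of 1.13 (0.708 to 1.79). Batf, Batf2 and Batf3 had at most 5 reads in a library.

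Among 29 measured early response genes of 30, 2 exceeded 2-fold toward neurons and 6 toward NPCs on the log2(CPM + 1) scale. Over all genes these shares were 3.85% and 6.73%. The median of the list was 0.02. The 6 were the RNA-binding genes Zfp36l1 and Zfp36l2, whose products speed the decay of AU-rich messages, the cell cycle inhibitors Gadd45g and Btg2, the secreted matrix protein gene Cyr61 and the repressor gene Bhlhe40. Zfp36l1 was at 14.6 CPM in neurons and 66.6 in NPCs, 4.56-fold higher in NPCs (4.05 to 5.14). The NPC to neuron ratio was 3.32 for Gadd45g (3.03 to 3.65), 3.499 for Cyr61 (2.78 to 4.45) and 2.77 for Btg2 (2.60 to 2.96). Gadd45g and Btg2 also stand in the list of intermediate progenitor markers, which were lower in neurons as a list. Zfp36, the founding member of the RNA decay family and itself an early gene, was at 8.38 CPM in neurons and 6.60 in NPCs. The 2 genes higher in neurons were the kinase gene Plk2 (113.4 CPM in neurons and 46.6 in NPCs) and the repressor gene Nfil3 (38.5 and 16.9 CPM). Without the added value 2 low genes also exceeded 2-fold. Klf4, for a zinc finger factor, was at 2.24 CPM in neurons and 0.927 in NPCs, 2.42-fold higher in neurons (1.47 to 4.07), and Ctgf, for a secreted matrix protein, at 0.439 CPM in neurons and 1.82 in NPCs, with an NPC to neuron ratio of 4.13 (2.07 to 9.16). Klf4 passed the 1 CPM filter through the neuron library alone and Ctgf through the NPC library alone. Zfp36, Zfp36l2, Bhlhe40, Plk2, Nfil3, Klf4 and Ctgf were named after their values were seen.

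The feedback phosphatases of the Dusp family, which switch off mitogen-activated protein kinases (MAP kinases), were split. Dusp8 was at 148.8 CPM in neurons and 66.5 in NPCs, 2.24-fold higher in neurons (2.11 to 2.37). Dusp6, which is specific for ERK, was at 27.8 CPM in neurons and 12.7 in NPCs, a 2.19-fold difference (1.92 to 2.51). Dusp10 was at 3.47 CPM in neurons and 14.3 in NPCs, 4.13-fold higher in NPCs (3.23 to 5.33). Dusp1, the phosphatase most often counted among immediate early genes, was at 45.2 CPM in neurons and 34.1 in NPCs, 1.33-fold higher in neurons (1.21 to 1.45). Dusp4 was at 186.9 CPM in neurons and 161.2 in NPCs, while Dusp2 and Dusp5 had at most 7 reads in a library.

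The kinases and factors that switch the early genes on all passed the filter. The median log2 ratio of the 16 kinase genes was 0.22. Of them, 1 exceeded 2-fold toward neurons and 0 toward NPCs, against 3.85% and 6.73% of all genes. That gene was Camk4, a calcium-dependent kinase that activates CREB, at 87.3 CPM in neurons and 30.8 in NPCs (2.83-fold, 2.61 to 3.07). The neuron to NPC ratio was 1.86 for the Jun kinase gene Mapk10 (1.74 to 1.98), 1.62 for its relative Mapk8 (1.56 to 1.68) and 1.53 for the kinase gene Rps6ka1 (1.295 to 1.80). Of 17 transcription factor and coactivator genes, 1 exceeded 2-fold in each direction, and the median was −0.15. Mef2c was at 185.1 CPM in neurons and 82.5 in NPCs (2.24-fold, 2.13 to 2.36). The serum response factor partner Elk3 was at 8.999 CPM in neurons and 24.4 in NPCs, 2.71-fold higher in NPCs (2.31 to 3.19), and its relative Elk4 and the CREB relative Atf1 were higher there too, with ratios of 1.53 (1.36 to 1.71) and 1.56 (1.38 to 1.77). Srf and Creb1, named after their values were seen, were at 60.1 and 224.8 CPM in neurons and at 49.3 and 281.8 CPM in NPCs.

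Targets of neuronal activity and of heat stress were measured beside them. Of 15 activity-regulated neuronal genes 10 passed the filter and 1 was at least 2-fold apart on the log2(CPM + 1) scale, Inhba, the gene of the activin A subunit, at 8.16 CPM in neurons and 1.67 in NPCs (4.89-fold, 3.52 to 6.94). Scg2 and Homer1, for a secretory granule protein and a synaptic scaffold, had neuron to NPC ratios, without the added value, of 2.47 (1.63 to 3.81) and 1.70 (1.59 to 1.83), and Nptx2, for a secreted synaptic protein, was 1.74-fold higher in NPCs (1.24 to 2.45). Vgf, for a secreted neuropeptide precursor, was at 1.45 CPM in neurons and 0.704 in NPCs, a ratio of 2.06 (1.14 to 3.83). It passed the 1 CPM filter through the neuron library alone. Npas4, the early gene that responds to calcium entry, had 19 reads in neurons and 18 in NPCs, and Bdnf 3 and 9 reads (Vgf, Npas4 and Bdnf were named after their values were seen). Of 13 measured heat shock and chaperone genes of 14, 0 exceeded 2-fold toward neurons and 1 toward NPCs, and the median was −0.0067. That gene was Bag3, a partner of Hsp70, at 0.747 CPM in neurons and 2.82 in NPCs (3.77-fold, 2.21 to 6.82), which passed the 1 CPM filter through the NPC library alone. Hspa5, Hsph1 and Dnaja1 differed little, and the widest difference of the 3 was that of Hspa5, 1.26-fold higher in NPCs (1.22 to 1.31). The stress-inducible Hsp70 genes Hspa1a and Hspa1b, named after their values were seen, were at 2.59 and 2.72 CPM in neurons and at 2.56 and 2.41 CPM in NPCs. They are near-identical copies whose reads could have been split or multiplied, so these values are uncertain. Among 13 housekeeping genes 0 were at least 2-fold apart on the log2(CPM + 1) scale, and without the added value the widest differences were those of B2m and Ppia, 2.12-fold and 1.84-fold higher in neurons, and of Pgk1 and Sdha, 1.33-fold and 1.19-fold higher in NPCs. B2m was at 10.1 CPM in neurons and 4.75 in NPCs, and Ppia at 30.5 and 16.5 CPM. The part of multiply aligned reads in these values was not tested.

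**Figure D4:**
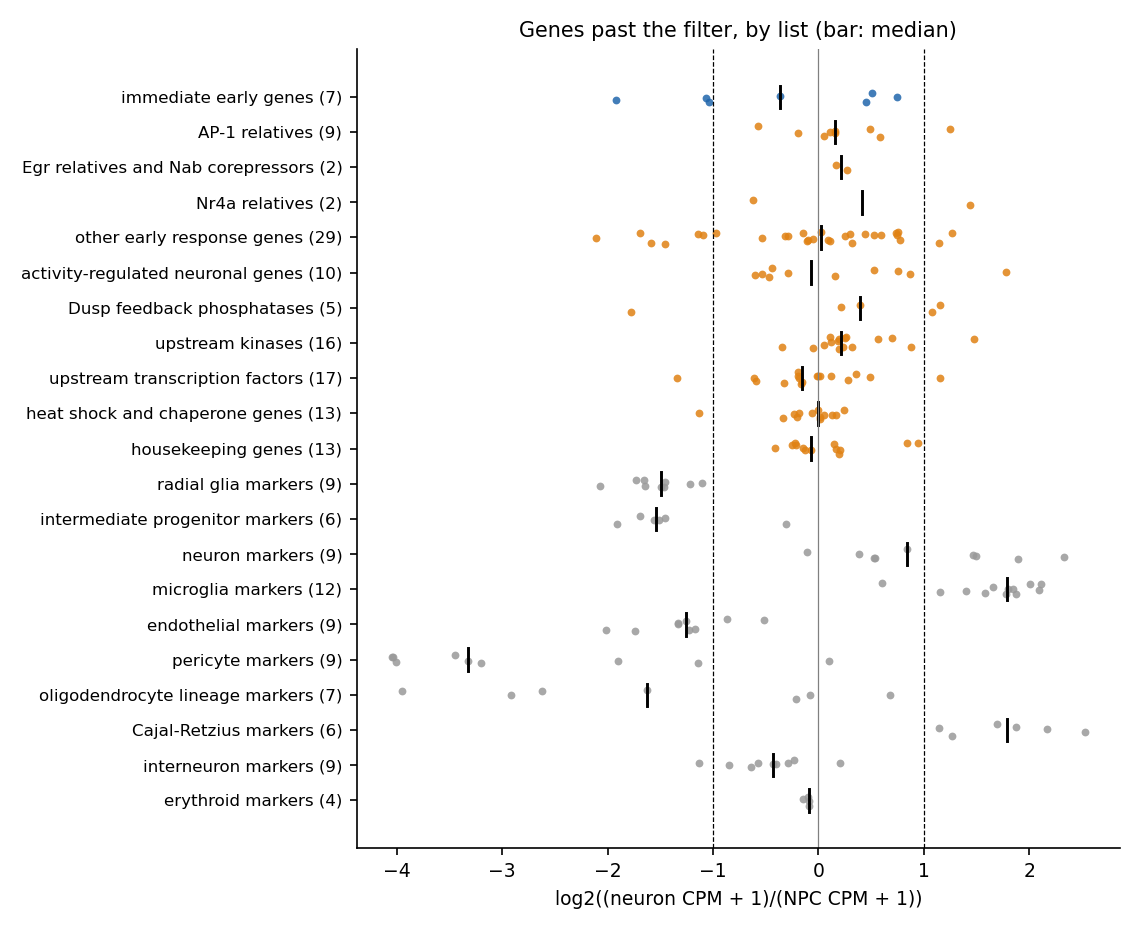
log2 ratio of neuron to NPC with 1 CPM added to both, for each gene with at least 1 CPM in a library (points), by list, with the list median as a bar and the number of genes in brackets. The immediate early genes (blue) run from −1.92 to 0.75, the pathway and housekeeping lists (orange) have medians between −0.15 and 0.41, and the marker lists (grey) spread from pericytes at −3.32 to microglia at 1.79.

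Markers of most cell types, both within and beyond the 2 labelled populations, differed between the libraries. Many of these cell types can express immediate early genes. Of the 12693 genes past the 1 CPM filter, 6263 were higher in neurons and 6430 in NPCs. Without a filter, 7947 of the 20373 listed genes were higher in neurons and 8176 in NPCs. All 12 microglia markers, led by Csf1r and Cx3cr1, were higher in neurons, with summed levels of 162.8 CPM in neurons and 36.7 in NPCs. All 6 Cajal-Retzius markers, led by Reln and Trp73, were higher in neurons too (469.7 and 101.4 CPM). Through the neuron library alone, 4 microglia and 3 Cajal-Retzius markers passed the filter, against 283 of all 12693 genes. All 10 endothelial markers, counted without a filter and led by Kdr and Esam, were higher in NPCs (4.31 CPM in neurons and 24.3 in NPCs), and 1 of them reached 1 CPM in both libraries. Also higher in NPCs were 8 of 9 pericyte markers, led by Abcc9 and Pdgfrb (12.9 and 222.8 CPM), and 6 of 7 oligodendrocyte lineage markers, led by Mbp and Pdgfra (38.6 and 81.7 CPM). Through the NPC library alone, 8 endothelial, 4 pericyte and 4 oligodendrocyte lineage markers passed the filter, against 426 of all 12693 genes. Of 9 interneuron markers, led by Dlx1 and Lhx6, 8 were higher in NPCs (220.4 CPM in neurons and 307.3 in NPCs). Of these, 1 was at least 2-fold apart on the log2(CPM + 1) scale, Dlx6, which passed the filter through the NPC library alone. The 4 measured erythroid markers of 7, led by the near-identical Hba-a1 and Hba-a2, differed little. All 7 summed to 141.5 CPM in neurons and 151.5 in NPCs. Hba-a1 and Hba-a2 had identical counts (1296 reads in neurons and 1638 in NPCs), so this sum may hold the same reads under both names. Of all these markers, Hbb-bh1 in neurons was the 1 with 0 reads. All 9 radial glia markers and all 6 intermediate progenitor markers, led by Eomes and Neurog2, were higher in NPCs (667.2 and 835.9 CPM in neurons and 1827 and 2052 CPM in NPCs). The part of these cells in the levels of Egr1, Arc, Jun, Nr4a1 and the other early genes was not tested.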

How the data were processed

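The RNA-seq libraries, 1 of neurons and 1 of NPCs, were prepared with a TruSeq RNA kit, per the labels' protocols. The submitters' processing notes list build mm9, TopHat 1.2.0, CASAVA 1.9, SAMtools 0.1.18 and edgeR (version not listed). The gene annotation, strand and treatment of multiply aligned reads are, in the sources used here, not given. The authors deposited 1 value per gene, a signal never below 0 that lies on whole multiples of a step, 1.13 in the neuron file and 0.953 in the NPC file, as rescaled read counts would. Dividing by it recovered whole reads (tolerance 0.05 reads) for 99.97% of the neuron values and 100% of the NPC values; neuron values under 0.01 were taken as 0. A count test on these reads was not run, because 1 library per group leaves no residual degrees of freedom.

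CPM were obtained with 1 divisor for both libraries, the average of the column sums (25698104), times 1000000, which keeps the authors' scaling. The design had been written for counts or normalized values, and the added 1 CPM and the 1 CPM filter were applied on this scale. For genes with at least 1 CPM in a library the measure was log2((neuron + 1)/(NPC + 1)), in which differences of low genes come out too small, and called apart at 2-fold. Single-gene folds are ratios of CPM without the added value. Their intervals, and those of shares, are exact 95% Clopper-Pearson intervals on recovered reads, and Poisson intervals stand in the plot of levels. Since reads lack molecular identifiers, intervals and the floor of 3 reads reflect counting error and nothing else. Levels per length use the longest coding transcript of GENCODE M21, found for 18465 of 20373 symbols. The annotation behind the files may differ. The calculations were tested on simulated reads with counting error alone, which cannot check variation between libraries. Python 3.11.15, SciPy 1.17.1, R 4.3.3 and edgeR 4.0.16 (scaling factors) were used.

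The members and the gene lists were chosen with earlier results of these data known. Named genes are the 10 members, all AP-1, Egr, Nr4a and Dusp relatives, up to 4 genes per other list with the largest absolute log2 ratio, and the 2 most abundant genes per marker list; others are marked as named after their values were seen. Of 225 list entries, 2 were found under an older symbol (Mtap2 for Map2, A930038C07Rik for Ndnf). With 2 libraries a gene's pattern is a single ratio, so no genes were picked for a like pattern. Alternatives were 4 other scalings, other added values (0.5 and 5 CPM), other filters (none and 10 CPM) and a 1.5-fold threshold.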

Additional observations from a re-analysis of the deposited data

How the results depend on the processing

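No paired analysis was possible because each group has 1 library, and no library could be left out. Under the 4 other scalings (total reads, TMM, upper quartile and median of ratios) all 10 members kept the direction of their ratio, all 40 values stayed inside the counting interval of the reported fold, and Jun, Egr1 and Arc stayed at least 2-fold higher in NPCs. Egr1 ranged from 19.6-fold to 20.6-fold, Jun from 2.08-fold to 2.18-fold and Nr4a1, higher in neurons, from 1.77-fold to 1.86-fold. The median over all genes lay between −0.068 with total reads and −0.0036 with the median of ratios. With 5 CPM added in place of 1, 0 members were at least 2-fold higher in NPCs, 238 genes of the whole table were higher in neurons and 399 in NPCs, and 5 pathway genes were higher in neurons, since the added value shrinks ratios of low genes. With a filter of 10 CPM, 1 member (Jun) was higher in NPCs, and 548 genes of the whole table, as fewer genes were compared. With no filter the median over the members was −0.11 in place of −0.37. A 1.5-fold threshold counted 1 member in neurons (Nr4a1), 1346 genes of the whole table in neurons and 1659 in NPCs, and 19 and 14 pathway genes. Depth limits Fos, Fosb and Atf3, whose ratios were known no better than their wide intervals.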
